A study of Mus musculus with 9 samples.

Results

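The genes described here are 41 mouse genes of cell division: components of DNA replication, enzymes that supply deoxynucleotides, cyclins and their kinases, mitotic proteins and inhibitors of cyclin-dependent kinases. They were taken by gene name from a table of 57238 entries, all 41 were found, and all 41 passed the filter on low counts that left 15028 genes for testing. RNA sequencing was done on dendritic cells grown from bone marrow (BMDCs) of wildtype C57BL/6 mice in 20 ng/ml GM-CSF (6 days per the labels). There were 3 libraries of control BMDCs without exosomes (CTR), 3 of BMDCs given exosomes from NIH 3T3 fibroblasts, an untransformed mouse line (NE-treated), and 3 of BMDCs given exosomes from tumor cells (TDE-treated), with 24 h of exposure. The labels do not name the tumor line and do not say that the libraries of a group came from separate cultures, so p-values measure the spread between these libraries, which may be technical. The comparisons ask how the expression of cell division genes differed between BMDCs with tumor exosomes, with exosomes of normal cells and without exosomes.

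Cells that divide copy their DNA in S phase and separate the copies in mitosis. Before S phase, Cdc6 and Cdt1 load the Mcm helicase onto origins, D and E cyclins with their kinases release the E2F factors, and at the fork Pcna clamps the DNA polymerases. Many replication genes are transcribed through E2F sites, and many mitotic genes later in the cycle through CHR and CCAAT elements. The kinase inhibitors p21 (Cdkn1a) and p27 (Cdkn1b) hold the cyclin-dependent kinases back. In cultures with GM-CSF, bone marrow progenitors divide while they become dendritic cells and other myeloid cells.

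Promoter sequences are shown for 2 replication genes and 2 mitotic genes, to let the words searched for in these gene groups be seen. They come from RefSeq (GRCm38.p6), where 32 of the 41 genes had a window of 300 bases, 250 before and 50 after the transcription start. Aurkb, Ccna2, Ccnd1, Ccnd2, Ccne2, Foxm1, Gins2, Mcm4 and Myc had none. Mcm7, Uhrf1, Cdkn1a, Cdkn2c and Ccnd3 had a further window at another start. A gene was counted as holding a word if any of its windows held it. The 160 bases before the start are printed in the direction of transcription, with capitals for E2F words (TTTCCCGC, TTTGGCGC, TTTCGCGC or TTTGCCGC), the CHR word (TTTGAA) and the CCAAT box (CCAAT), each searched on both strands. The stretches are chr8:75109349-75109508 on the plus strand and chr1:128359706-128359865, chr2:127831860-127832019 and chr7:135716380-135716539 on the minus strand.
Mcm5: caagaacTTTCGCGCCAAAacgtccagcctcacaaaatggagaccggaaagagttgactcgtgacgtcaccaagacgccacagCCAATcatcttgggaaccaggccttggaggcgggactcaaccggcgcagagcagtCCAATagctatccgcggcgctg
Mcm6: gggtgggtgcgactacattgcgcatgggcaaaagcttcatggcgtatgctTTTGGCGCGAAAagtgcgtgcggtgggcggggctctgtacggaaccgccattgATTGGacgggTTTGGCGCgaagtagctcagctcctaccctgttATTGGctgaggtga
Bub1: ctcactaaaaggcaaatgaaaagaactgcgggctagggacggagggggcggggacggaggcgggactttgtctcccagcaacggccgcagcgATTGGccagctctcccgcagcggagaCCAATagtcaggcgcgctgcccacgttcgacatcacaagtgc
Mki67: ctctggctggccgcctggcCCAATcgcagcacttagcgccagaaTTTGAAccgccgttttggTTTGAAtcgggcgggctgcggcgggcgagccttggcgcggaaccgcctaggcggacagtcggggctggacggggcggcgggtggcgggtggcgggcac

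In Mcm5, the E2F words TTTCGCGC and, on the opposite strand, TTTGGCGC overlapped and began 153 and 149 bases before the start, and CCAAT boxes began 77 and 22 bases before it. In Mcm6, overlapping E2F words began 110 and 106 bases and a further one 47 bases before the start. Bub1 held CCAAT boxes 68 and 42 bases before the start, and Mki67 held CHR words 116 and 98 bases before it. Among all 27025 genes with a window, 2.60% held an E2F word, 20.2% the CHR word and 41.1% a CCAAT box. Of the 9 replication genes with a window, 7 held an E2F word (Cdc6, Cdt1, Mcm3, Mcm5, Mcm6, Mcm7 and Uhrf1), 1 the CHR word (Mcm2) and 7 a CCAAT box. Of the 12 genes of G2 and mitosis with a window, 1 held an E2F word (Cdk1), 8 the CHR word (Aurka, Ccnb2, Cdc20, Cdk1, Kif11, Mki67, Plk1 and Top2a) and 11 a CCAAT box. These are matches of letters and not measured binding sites.

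The libraries held 17469782 to 21092943 estimated reads on genes, and the floor of 3 reads corresponded to 0.135 to 0.190 CPM (reads scaled to the normalized size of the library), which covers counting error only. The fewest estimated reads of any of the 41 genes were 22.7, for Ccnd1 in 1 TDE-treated library. CTR replicate 1 stood apart from the other libraries. Its correlation with them lay between 0.852 and 0.914, against 0.958 to 0.996 among the other 8, and values without it are given beside the results that it moved most. All 10 dendritic cell markers were detected, beside markers of granulocytes and progenitors. The summed level of the dendritic cell markers was 4.87e+03 to 1.46e+04 CPM in CTR, 4.65e+03 to 5.82e+03 CPM in NE-treated and 2.61e+03 to 2.77e+03 CPM in TDE-treated BMDCs. Those of 9 neutrophil markers summed to 7.39e+03 to 2.89e+04 CPM in CTR, 7.77e+03 to 1.11e+04 CPM in NE-treated and 3.43e+03 to 3.72e+03 CPM in TDE-treated BMDCs. The sum of 8 myeloid progenitor markers was 199.8 to 515, 218 to 257 and 85.05 to 92.1 CPM, and the sum of 8 eosinophil markers 626 to 1.67e+03, 639 to 726 and 115 to 144 CPM in the same order. All these sums were lower in every TDE-treated library than in any other, no marker of these lists was at 0 in all libraries, and their part in the results below was not tested. Between NE-treated and CTR BMDCs, the median log2 fold change of the dendritic cell markers was -0.19 over 9 libraries and -0.08 without CTR replicate 1. For the neutrophil, progenitor and eosinophil markers it was -0.52, -0.30 and -0.33, and 0.06, 0.09 and -0.09 without that library. In bulk RNA, fewer cells of a type and less RNA per cell cannot be told apart.

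Against CTR BMDCs, TDE-treated BMDCs had lower levels of replication genes (Mcm2, Mcm5, Mcm6 and Pcna) and of the growth regulators Ccnd1 and Myc, and higher levels of mitotic genes (Mki67, Bub1, Aurkb and Cenpe) and of the kinase inhibitors Cdkn1a and Cdkn1b. Thus 12 of 41 genes (29.3%) passed an adjusted p of 0.05 when all 9 libraries were fitted with edgeR's quasi-likelihood test, 6 higher and 6 lower, where 16.9% of all tested genes passed, 7.57% higher and 9.34% lower. Against NE-treated BMDCs, 11 of 41 (26.8%) passed, 4 higher (Aurkb, Bub1, Ccnd3 and Cdkn1a) and 7 lower (Ccnd1, Mcm2, Mcm3, Mcm5, Mcm6, Myc and Pcna), where 13.9% of all tested genes passed, 6.73% higher and 7.21% lower. These comparisons share the TDE-treated libraries and are given side by side. The median log2 fold change of the 41 genes was 0.24 against CTR and 0.10 against NE-treated BMDCs, beside -0.05 and -0.02 over all tested genes. The log2 fold changes ran from -1.44 (Ccnd1) to 1.74 (Bub1) against CTR and from -1.72 to 1.38, for the same pair of genes, against NE-treated BMDCs.

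**Figure D1:**
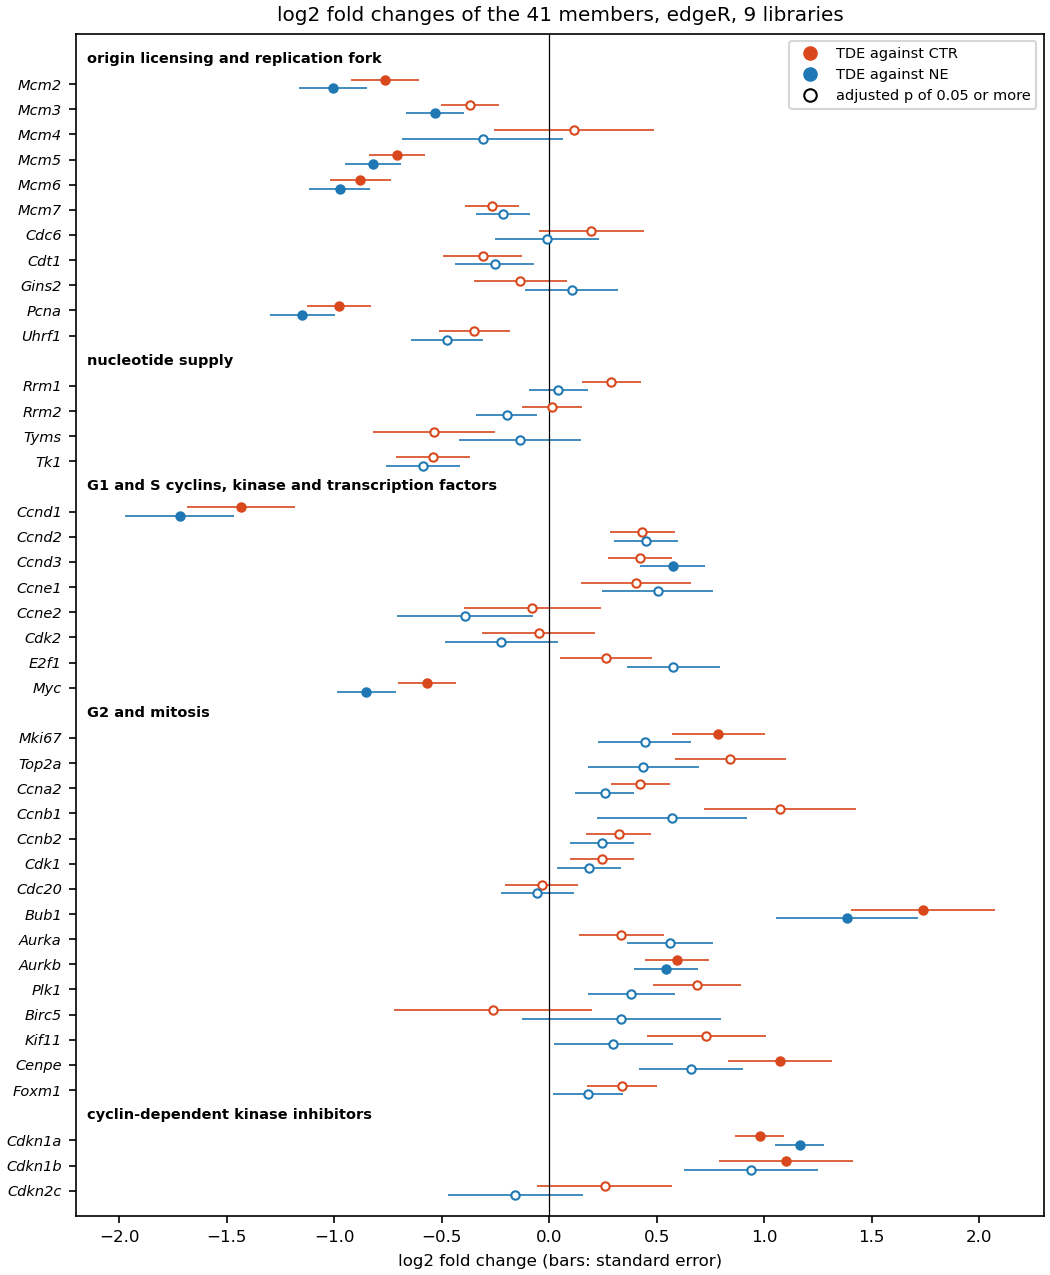
Each point is the log2 fold change of 1 gene in TDE-treated against CTR (red) or NE-treated BMDCs (blue), with its standard error as a bar; filled points have an adjusted p under 0.05. Filled points of the replication genes lie left of 0 and those of the genes of G2 and mitosis and of the kinase inhibitors lie right of 0.

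The 11 genes of origin licensing and the replication fork were lower in TDE-treated BMDCs or did not pass, and none was higher. Against CTR, 4 fell and 7 did not pass, with a median log2 fold change of -0.35 and a range from -0.98 to 0.20. Against NE-treated BMDCs, 5 fell and 6 did not pass, with a median of -0.48. The genes that fell were 36.4% and 45.5% of the 11. Of all tested genes, 16.9% passed against CTR (9.34% lower) and 13.9% against NE-treated BMDCs (7.21% lower). Pcna (chr2:132249162-132253314), the sliding clamp of the polymerases, had the largest fall of the group. It was at 119, 120.3 and 106 CPM in CTR, 119, 113 and 155 CPM in NE-treated and 60.7, 56.5 and 57.6 CPM in TDE-treated BMDCs. Every TDE-treated library was below every other library. The log2 fold change was -0.98 ± 0.15 (SE) against CTR (adjusted p = 0.00421) and -1.15 ± 0.15 against NE-treated BMDCs (adjusted p = 0.00188), that is 1.97-fold and 2.22-fold lower.

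The Mcm proteins form the ring of the replicative helicase. Mcm6 (chr1:128331590-128359664) was at 40.3, 36.8 and 32.3 CPM in CTR, 35.8, 39.9 and 41.3 CPM in NE-treated and 18.4, 22.4 and 18.7 CPM in TDE-treated BMDCs. Against CTR the log2 fold change was -0.88 ± 0.14 (SE, adjusted p = 0.00531), and against NE-treated BMDCs it was -0.98 ± 0.14 (adjusted p = 0.00325). Mcm5 (chr8:75109569-75128439) was at 19.1, 21.5 and 18.3 CPM in CTR, 19.96, 21.04 and 22.7 CPM in NE-treated and 11.9, 11.2 and 13.1 CPM in TDE-treated BMDCs. Log2 fold changes were -0.71 ± 0.13 (SE) in TDE-treated against CTR (adjusted p = 0.00867) and -0.82 ± 0.13 against NE-treated BMDCs (adjusted p = 0.00459). For both of these genes, whose promoters are printed above, the TDE-treated libraries did not overlap those of CTR or NE-treated BMDCs, while CTR and NE-treated BMDCs overlapped. Without TDE replicate 1 or 2, the adjusted p of Mcm5 against CTR was 0.0523 or 0.0536.

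Mcm2 (chr6:88883474-88898780) was at 10.01, 13.4 and 13.7 CPM in CTR, 15.7, 14.6 and 13.6 CPM in NE-treated and 7.32, 7.37 and 7.16 CPM in TDE-treated BMDCs. All TDE-treated libraries were below all the others, and the nearest was CTR replicate 1. TDE-treated BMDCs had a log2 fold change of -0.76 ± 0.16 (SE) against CTR (adjusted p = 0.0135) and of -1.01 ± 0.16 against NE-treated BMDCs (adjusted p = 0.004303). Without TDE replicate 1, 2 or 3 in turn the adjusted p against CTR was 0.0680, 0.0638 and 0.0712. Mcm3 (chr1:20802968-20820312) was at 25.6, 33.3 and 32.5 CPM in CTR, 33.4, 34.1 and 34.9 CPM in NE-treated and 22.7, 23.3 and 24.8 CPM in TDE-treated BMDCs. The TDE-treated libraries were below all the others, and CTR replicate 1 was the nearest to them. The log2 fold change was -0.37 ± 0.13 (SE) against CTR (adjusted p = 0.0929) and -0.53 ± 0.13 against NE-treated BMDCs (adjusted p = 0.0322). With any 1 NE-treated or TDE-treated library left out, the adjusted p of Mcm3 against NE-treated BMDCs was between 0.0969 and 0.146.

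The other members of the helicase and its loaders did not pass in either comparison. Log2 fold changes against CTR of Mcm4, Mcm7, the loaders Cdc6 and Cdt1, the helicase activator subunit Gins2 and the maintenance methylation factor Uhrf1 were between -0.35 and 0.20. Mcm4 was singled out after its values were seen, because 1 library decided its sign. It was at 7.86, 25.2 and 25.9 CPM in CTR, 25.9, 26.1 and 27.2 CPM in NE-treated and 21.9, 20.1 and 21.8 CPM in TDE-treated BMDCs. CTR replicate 1 was at 0.308 times the mean of the other CTR libraries, and without it the log2 fold change of Mcm4 against CTR was -0.27 (adjusted p = 0.0274) in place of 0.11 (adjusted p = 0.8398).

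The 4 genes of nucleotide supply did not pass in either comparison. Rrm1, the large subunit of ribonucleotide reductase, was at 30.4, 39.9 and 39.3 CPM in CTR, 44.2, 42.2 and 43.6 CPM in NE-treated and 45.2, 41.8 and 46.8 CPM in TDE-treated BMDCs. Rrm1 had a log2 fold change of 0.29 ± 0.14 against CTR (adjusted p = 0.1705) and 0.04 ± 0.14 against NE-treated BMDCs (adjusted p = 0.918). Tk1, the cytosolic thymidine kinase, was at 37.9, 35.4 and 42.8 CPM in CTR, 47.4, 41.6 and 30.98 CPM in NE-treated and 25.3, 27.4 and 27.1 CPM in TDE-treated BMDCs. The TDE-treated libraries of Tk1 were below all the others, with log2 fold changes of -0.54 ± 0.17 (adjusted p = 0.0645) and -0.59 ± 0.17 (adjusted p = 0.0559). Tk1 passed in both comparisons without CTR replicate 1, at -0.56 (adjusted p = 0.02702) and -0.60 (adjusted p = 0.0119).

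**Figure D2:**
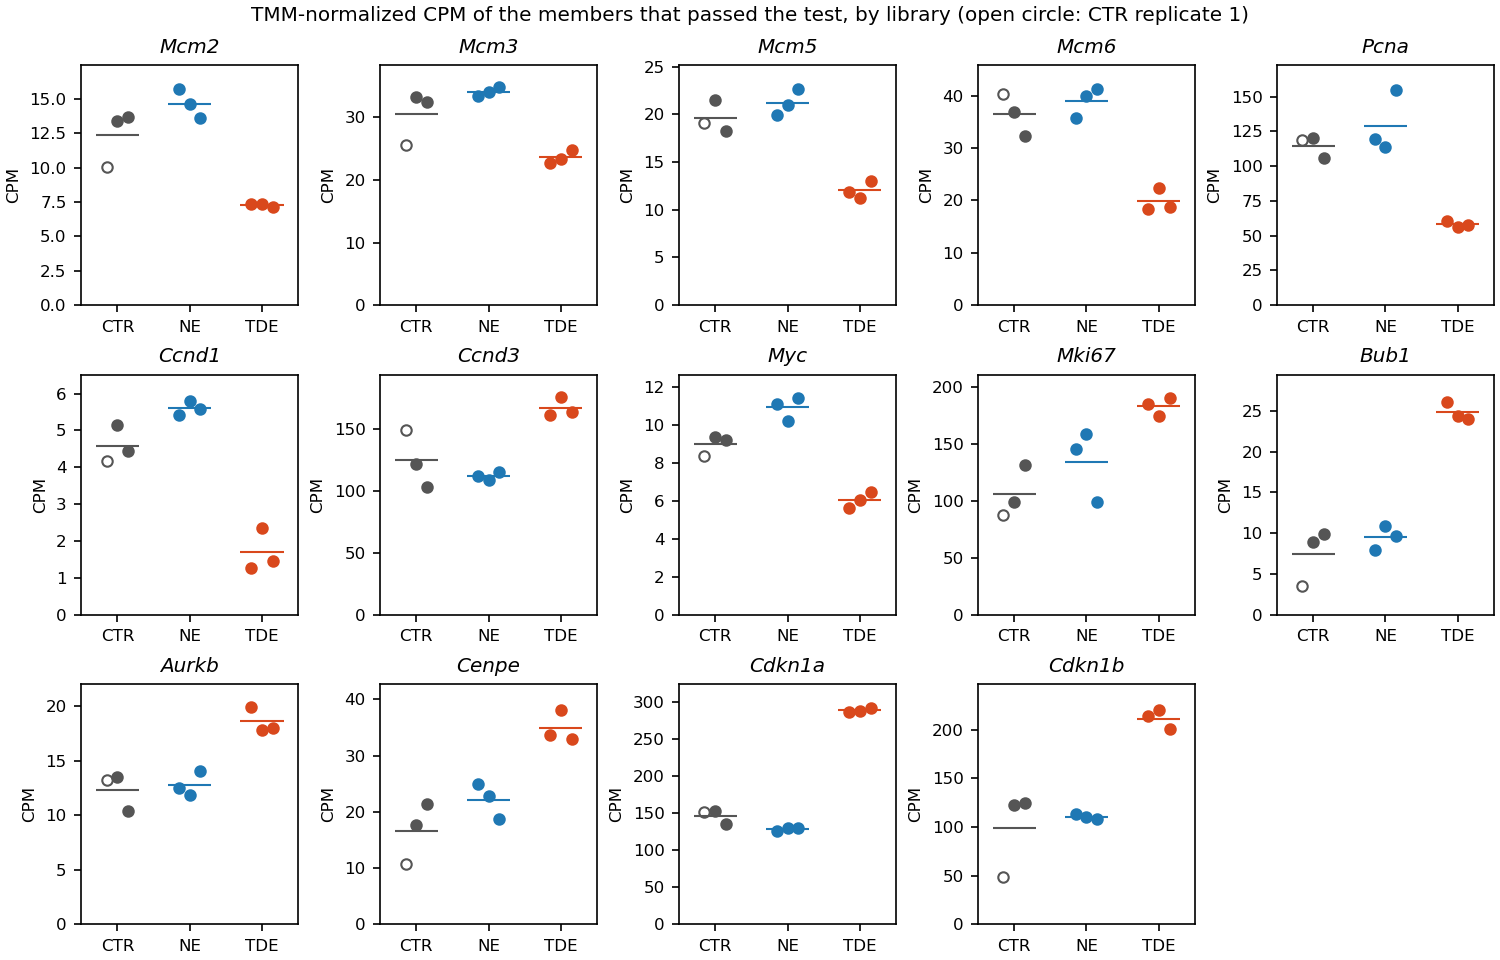
TMM-normalized CPM of the 14 genes with an adjusted p under 0.05 in any comparison, 1 point per library, with the mean of each group as a line and CTR replicate 1 as an open circle. In every panel the 3 TDE-treated libraries lie to 1 side of all the other libraries.

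Among the 8 cyclins, kinase and transcription factors of G1 and S phase, the D cyclins went apart. Ccnd1 (chr7:144929931-144939925), cyclin D1, was at 4.18, 5.15 and 4.44 CPM in CTR, 5.41, 5.802 and 5.57 CPM in NE-treated and 1.27, 2.35 and 1.46 CPM in TDE-treated BMDCs. The 3 groups did not overlap in any pair. Against CTR the log2 fold change was -1.44 ± 0.25 (SE, adjusted p = 0.00731), and against NE-treated BMDCs it was -1.72 ± 0.25 (adjusted p = 0.00333), that is 2.70-fold and 3.29-fold lower, from 22.7 to 42.8 estimated reads in TDE-treated against 65.8 to 114 in CTR libraries. Ccnd3 (chr17:47505051-47599691), cyclin D3, was at 149, 122 and 104 CPM in CTR, 112, 109 and 116 CPM in NE-treated and 161, 176 and 164 CPM in TDE-treated BMDCs. The TDE-treated libraries were above all the others, and the nearest was CTR replicate 1. Log2 fold changes were 0.42 ± 0.15 (SE) in TDE-treated against CTR (adjusted p = 0.08998) and 0.57 ± 0.15 against NE-treated BMDCs (adjusted p = 0.0384). With CTR replicate 2 or any 1 NE-treated or TDE-treated library left out, the adjusted p against NE-treated BMDCs was between 0.0643 and 0.142, and without CTR replicate 1 it was 0.00138 against CTR.

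Per kilobase of gene length, cyclin D3 made up 96.0% ± 0.92 of the summed level of the 3 D cyclins in CTR libraries, 95.2% ± 0.41 in those of NE-treated and 97.4% ± 0.038 in those of TDE-treated BMDCs (SD, n = 3). The share of cyclin D1 was 1.93% ± 0.41, 2.54% ± 0.13 and 0.523% ± 0.15. Cyclin D3 was thus the most abundant D cyclin in each of the 9 libraries. Exons of Ccnd1 and Ccnd3 overlap LTO1 and Bysl on the opposite strand, and those of Ccnd2 overlap Gm43126 and 9330179D12Rik there. The strand used for counting is not stated, so reads of these overlapping genes may be mixed.

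Myc (chr15:61985391-61990374), a transcription factor that drives growth and cell cycle entry, was at 8.37, 9.39 and 9.23 CPM in CTR, 11.1, 10.2 and 11.4 CPM in NE-treated and 5.65, 6.06 and 6.48 CPM in TDE-treated BMDCs. The 3 groups did not overlap in any pair. TDE-treated BMDCs had a log2 fold change of -0.57 ± 0.14 (SE) against CTR (adjusted p = 0.0259) and of -0.85 ± 0.14 against NE-treated BMDCs (adjusted p = 0.00493). The call against CTR was lost without CTR replicate 2, NE replicate 1 or 2, or any 1 TDE-treated library, with adjusted p between 0.0546 and 0.124. Cdk2, the kinase partner of E and A cyclins, was at 24.8, 55.3 and 51.5 CPM in CTR, 49.7, 51.3 and 47.7 CPM in NE-treated and 43.1, 40.9 and 43.3 CPM in TDE-treated BMDCs. Cdk2 had a log2 fold change of -0.05 ± 0.26 against CTR (adjusted p = 0.903), and of -0.34 (adjusted p = 0.00804) without CTR replicate 1, a library that was at 0.465 times the mean of the other CTR libraries. Log2 fold changes of Ccnd2, Ccne1, Ccne2 and E2f1 lay between -0.08 and 0.43 against CTR and between -0.39 and 0.58 against NE-treated BMDCs, and none of them passed.

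The 15 genes of G2 and mitosis were higher in TDE-treated BMDCs or did not pass, and none was lower. Against CTR, 4 rose and 11 did not pass, with a median log2 fold change of 0.59 and a range from -0.26 to 1.74. Against NE-treated BMDCs, 2 rose and 13 did not pass, with a median of 0.38. The genes that rose were 26.7% and 13.3% of the 15. Of all tested genes, 16.9% passed against CTR (7.57% higher) and 13.9% against NE-treated BMDCs (6.73% higher). Bub1 (chr2:127801122-127831865), a kinase of the spindle checkpoint, had the largest rise of all 41 genes. It was at 3.55, 8.85 and 9.84 CPM in CTR, 7.96, 10.9 and 9.696 CPM in NE-treated and 26.1, 24.4 and 24.03 CPM in TDE-treated BMDCs. The TDE-treated libraries lay between 24.0 and 26.1 CPM and no other library was above 10.9 CPM. The log2 fold change was 1.74 ± 0.34 (SE) against CTR (adjusted p = 0.0105) and 1.38 ± 0.33 against NE-treated BMDCs (adjusted p = 0.0268), that is 3.34-fold and 2.61-fold higher. CTR replicate 1 was at 0.3798 times the mean of the other CTR libraries, and without it the log2 fold change against CTR was 1.40 (adjusted p = 7.47e-05), again the highest of the 41. With any 1 NE-treated or TDE-treated library left out, the adjusted p against NE-treated BMDCs was between 0.0776 and 0.113.

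Aurkb (chr11:69045647-69051664), the kinase of the chromosomal passenger complex, was at 13.2, 13.5 and 10.3 CPM in CTR, 12.5, 11.8 and 14.02 CPM in NE-treated and 19.9, 17.9 and 18.02 CPM in TDE-treated BMDCs. Against CTR the log2 fold change was 0.59 ± 0.15 (SE, adjusted p = 0.0308), and against NE-treated BMDCs it was 0.54 ± 0.15 (adjusted p = 0.04605). Without NE replicate 1 or 2 or any 1 TDE-treated library the adjusted p against CTR was between 0.0543 and 0.121. Against NE-treated BMDCs it was between 0.0633 and 0.175 without CTR replicate 2 or any 1 NE-treated or TDE-treated library. Cenpe (chr3:135212537-135273611), a kinesin of the kinetochore, was at 10.7, 17.7 and 21.3 CPM in CTR, 24.9, 22.8 and 18.7 CPM in NE-treated and 33.8, 38.2 and 32.9 CPM in TDE-treated BMDCs. Log2 fold changes were 1.07 ± 0.24 (SE) in TDE-treated against CTR (adjusted p = 0.0208) and 0.66 ± 0.24 against NE-treated BMDCs (adjusted p = 0.1196). Without TDE replicate 1, 2 or 3 in turn the adjusted p of Cenpe against CTR was 0.0686, 0.0822 and 0.0647, and without CTR replicate 1 its log2 fold changes were 0.83 (adjusted p = 0.00194) against CTR and 0.65 (adjusted p = 0.00283) against NE-treated BMDCs. For Aurkb and Cenpe the TDE-treated libraries lay above all the others.

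Mki67 (chr7:135689784-135716361), the gene of the proliferation antigen Ki-67, was at 87.3, 99.4 and 132 CPM in CTR, 146, 159 and 99.2 CPM in NE-treated and 185, 174 and 190.3 CPM in TDE-treated BMDCs. The TDE-treated libraries were above all the others, and NE replicate 3 lay among the CTR libraries. TDE-treated BMDCs had a log2 fold change of 0.79 ± 0.22 (SE) against CTR (adjusted p = 0.0413) and of 0.44 ± 0.22 against NE-treated BMDCs (adjusted p = 0.239). The call against CTR was lost without CTR replicate 2, NE replicate 1 or 2, or any 1 TDE-treated library, with adjusted p between 0.0604 and 0.134. Top2a, the topoisomerase that untangles replicated chromosomes, was at 31.8, 64.8 and 68.01 CPM in CTR, 73.2, 77.9 and 66.8 CPM in NE-treated and 99.04, 98.1 and 97.95 CPM in TDE-treated BMDCs. The TDE-treated libraries of Top2a lay above all the others, with log2 fold changes of 0.84 ± 0.26 (adjusted p = 0.0589) and 0.44 ± 0.26 (adjusted p = 0.345). It passed in both comparisons without CTR replicate 1, at 0.56 (adjusted p = 0.000994) and 0.43 (adjusted p = 0.00163).

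Ccnb1, cyclin B1, the mitotic cyclin that activates Cdk1, was at 4.44, 14.4 and 11.4 CPM in CTR, 13.5, 14.97 and 14.5 CPM in NE-treated and 22.00, 19.8 and 21.99 CPM in TDE-treated BMDCs. No TDE-treated library overlapped the other groups, and the log2 fold change was 1.07 ± 0.35 against CTR (adjusted p = 0.0725) and 0.57 ± 0.35 against NE-treated BMDCs (adjusted p = 0.3700). These were, without CTR replicate 1, 0.71 (adjusted p = 0.00182) and 0.56 (adjusted p = 0.00264). Log2 fold changes against CTR of the other genes that did not pass, apart from Birc5, were between -0.04 (Cdc20, an activator of the anaphase-promoting complex) and 0.73 (Kif11, a spindle kinesin). Birc5, which encodes survivin, was singled out after its values were seen. It was at 41.6, 14.3 and 9.99 CPM in CTR, 13.5, 12.7 and 17.3 CPM in NE-treated and 17.1, 18.2 and 19.6 CPM in TDE-treated BMDCs. CTR replicate 1 was 3.43-fold above the mean of the other CTR libraries, and without it the log2 fold change of Birc5 against CTR was 0.58 (adjusted p = 0.0331) in place of -0.26 (adjusted p = 0.697).

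Of the 3 kinase inhibitors, Cdkn1a (chr17:29090976-29100727), which encodes p21 and is a classical target of p53, had the lowest adjusted p of the 41 genes. It was at 152, 153 and 135 CPM in CTR, 127, 129.9 and 130.2 CPM in NE-treated and 286, 289 and 292 CPM in TDE-treated BMDCs. The 3 groups did not overlap in any pair, with NE-treated below CTR and TDE-treated BMDCs above both. The log2 fold change was 0.98 ± 0.11 (SE) against CTR (adjusted p = 0.00119) and 1.17 ± 0.11 against NE-treated BMDCs (adjusted p = 0.000488), that is 1.97-fold and 2.24-fold higher. Exons of Cdkn1a overlap AC167363.2 on the opposite strand. Per kilobase Cdkn1a had the highest level of the 41 genes in each group, at 159 CPM per kilobase in CTR, 139.8 with NE and 314 with TDE.

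Cdkn1b (chr6:134920401-134925513), which encodes p27, was at 48.8, 123 and 124 CPM in CTR, 113, 109.8 and 108 CPM in NE-treated and 214, 219.8 and 200.4 CPM in TDE-treated BMDCs. The TDE-treated libraries were above all the others, and CTR replicate 1 was at 0.395 times the mean of the other CTR libraries. Against CTR the log2 fold change was 1.10 ± 0.31 (SE, adjusted p = 0.0453), and against NE-treated BMDCs it was 0.94 ± 0.31 (adjusted p = 0.0868). Without CTR replicate 1 the log2 fold changes were 0.77 (adjusted p = 7.05e-05) and 0.93 (adjusted p = 7.56e-06). The call against CTR was lost without CTR replicate 2 or any 1 NE-treated or TDE-treated library, with adjusted p between 0.0560 and 0.132. Cdkn2c, which encodes the Cdk4 and Cdk6 inhibitor p18, did not pass (log2 fold change 0.26 ± 0.32 against CTR, adjusted p = 0.573).

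Summed over the 11 replication genes, the level was 329 ± 17.3 CPM (SD, n = 3) in CTR, 356 ± 27.5 CPM in NE-treated and 224 ± 3.4 CPM in TDE-treated BMDCs. Over the 15 genes of G2 and mitosis it was 346 ± 40.5, 410.2 ± 28.8 and 553 ± 7.2 CPM in the same order. The ratio of the mitotic to the replication sum was 0.898, 1.05 and 1.22 in the CTR libraries, 1.22, 1.28 and 0.978 in the NE-treated and 2.49, 2.48 and 2.44 in the TDE-treated libraries. CTR and NE-treated BMDCs overlapped in this ratio and TDE-treated BMDCs lay above both. The 3 kinase inhibitors summed to 260.0 ± 45.8, 259 ± 2.2 and 518 ± 8.5 CPM. Sums of CPM are led by the genes with the highest CPM, here Pcna, Mki67 and Cdkn1a, and no test was made on the sums.

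**Figure D3:**
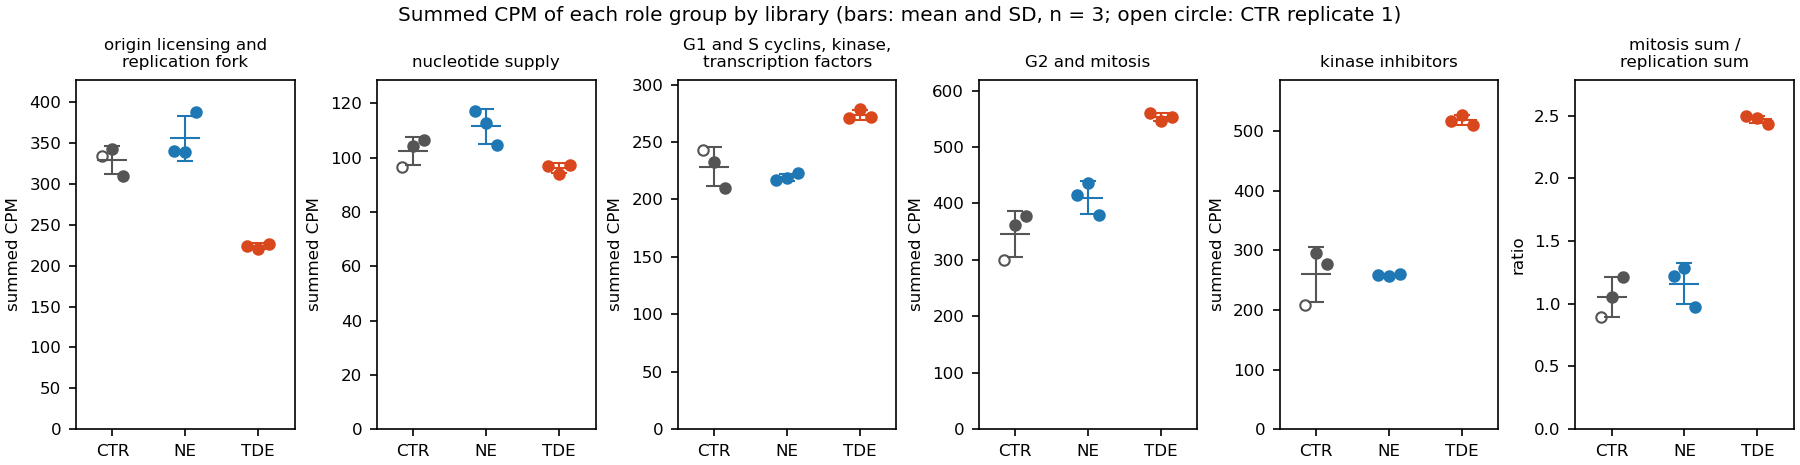
Summed CPM of each group of genes in every library and, at the right, the ratio of the mitotic to the replication sum, with mean and SD (n = 3) and CTR replicate 1 as an open circle. TDE-treated BMDCs have the lowest replication sums (220.2 to 227 CPM) and the highest mitotic sums (546 to 560.3 CPM).

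Exosomes of normal cells gave no call. Between NE-treated and CTR BMDCs, edgeR called 0 of 41 genes and 0.0% of all tested genes, and 0 of the 41 had an unadjusted p under 0.05, against 487 of all 15028. DESeq2 called 6 genes and limma voom 18, none of the 41, with 1 and 7 of the 41 at an unadjusted p under 0.05. Log2 fold changes of the 41 genes ran from -0.60 (Birc5) to 0.50 (Ccnb1), and the lowest adjusted p was 0.659. The libraries of 5 of the 41 genes (12.2%) did not overlap between NE-treated and CTR BMDCs, as was so for 7.71% of all tested genes. Their log2 fold changes were 0.16 (Mcm3), 0.25 (Rrm1), 0.28 (Ccnd1), 0.28 (Myc) and -0.19 (Cdkn1a). Without CTR replicate 1 the range of log2 fold changes narrowed to -0.16 to 0.25 and again 0 of 41 passed.

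CTR replicate 1 widened the spread of the 41 genes. The median coefficient of variation over the genes was 20.2% among CTR, 7.66% among NE-treated and 5.70% among TDE-treated libraries, and 10.2% between the other CTR libraries. In CTR replicate 1, 10 of the 41 genes were over 2-fold from the mean of the other CTR libraries. This was a smaller share than the 42.8% of all tested genes. Of the 41 genes, 21 were below both of the other CTR libraries, 12 above both and 8 between. Longer genes tended to be lower there. Across the 41 genes the log2 ratio of this library to the others had a Spearman rho of -0.35 with gene length, and -0.52 across 14692 tested genes. All these ratios share the same 3 libraries.

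Without CTR replicate 1, 24 of 41 genes (58.5%) passed against CTR, 14 higher and 10 lower, where 34.4% of all tested genes passed, 16.4% higher and 18.0% lower. The genes that passed in this fit and not over 9 libraries were Top2a, Ccna2, Ccnb1, Plk1, Birc5, Kif11, Ccnd3 and E2f1, which were higher, and Mcm3, Mcm4, Tk1 and Cdk2, which were lower. Against NE-treated BMDCs, 26 of 41 (63.4%) passed, 14 higher and 12 lower, where 40.7% of all tested genes passed, 19.2% higher and 21.5% lower. By role, 6 replication genes were lower and 0 higher against CTR and 8 lower and 0 higher against NE-treated BMDCs, while 10 and 9 of the 15 genes of G2 and mitosis were higher and 0 lower. In both fits no replication gene was higher and no gene of G2 and mitosis was lower, and without this library a larger share of all tested genes passed as well.

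**Figure D4:**
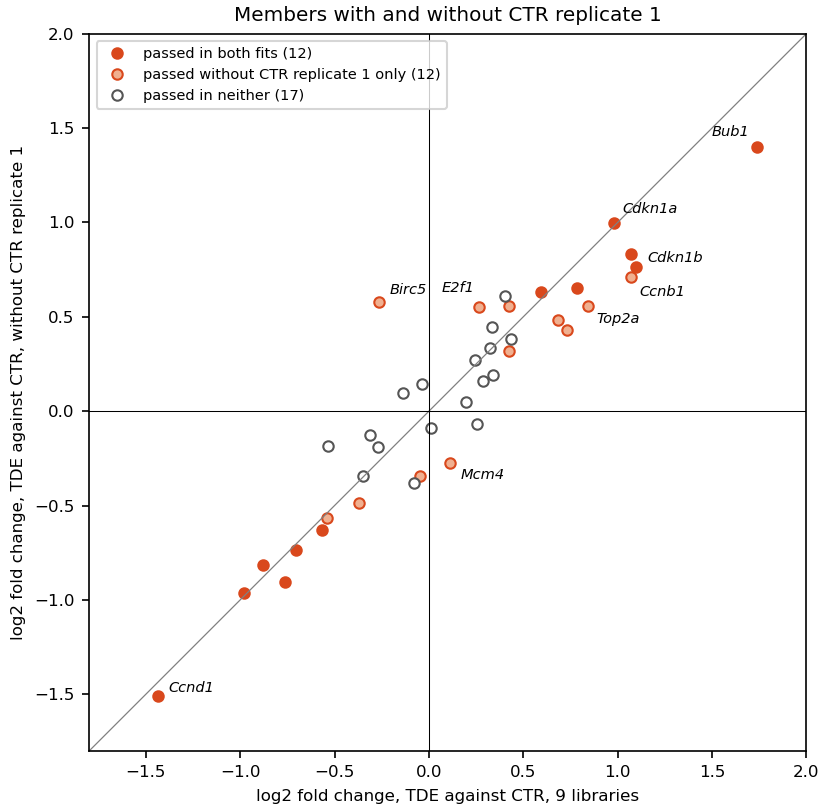
Log2 fold changes of the 41 genes in TDE-treated against CTR BMDCs, over 9 libraries (horizontal) and without CTR replicate 1 (vertical), with equal values on the grey line. Filled points passed in both fits (12), pale points only without CTR replicate 1 (12) and open points in neither (17); Birc5 and Mcm4 are among the 6 genes on opposite sides of 0 in the 2 fits and passed in the fit without CTR replicate 1.

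Other cell cycle genes were taken from 4 lists written by role, whose counts stand beside the 16.9% of all tested genes that passed against CTR and the 13.9% against NE-treated BMDCs. Of 55 other mitosis genes, 13 (23.6%) rose in TDE-treated against CTR BMDCs and none fell, with a median log2 fold change of 0.54, and 7 (12.7%) rose against NE-treated BMDCs with none lower, with a median of 0.29. The 13 included condensin subunits (Ncapd2, Ncapg and Ncaph), the spindle checkpoint kinase Bub1b, the passenger complex scaffold Incenp and the spindle proteins Prc1, Tpx2 and Nusap1. Ncaph was at 7.098, 9.98 and 10.2 CPM in CTR, 8.86, 10.8 and 10.6 CPM in NE-treated and 19.7, 19.2 and 17.2 CPM in TDE-treated BMDCs. Log2 fold changes were 1.04 ± 0.18 (SE) in TDE-treated against CTR (adjusted p = 0.006504) and 0.89 ± 0.18 against NE-treated BMDCs (adjusted p = 0.0124). Prc1, a bundler of midzone microtubules, was at 6.84, 18.6 and 16.8 CPM in CTR, 16.98, 19.7 and 17.01 CPM in NE-treated and 30.2, 29.4 and 31.6 CPM in TDE-treated BMDCs. TDE-treated BMDCs had a log2 fold change of 1.11 ± 0.32 (SE) against CTR (adjusted p = 0.0476) and of 0.76 ± 0.32 against NE-treated BMDCs (adjusted p = 0.165). Both had all TDE-treated libraries above all the others, and without CTR replicate 1 the log2 fold changes of Prc1 were 0.77 (adjusted p = 0.0004498) and 0.76 (adjusted p = 0.000178). Without CTR replicate 1, 29 of the 55 were higher and 1 (Bub3) lower against CTR, and 25 and 1 against NE-treated BMDCs, that is 54.5% and 47.3% beside 34.4% and 40.7% of all tested genes.

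Of 43 other replication genes tested, 3 (6.98%) passed against CTR, where 1 rose (Orc5, a subunit of the origin recognition complex) and 2 fell (Dut and Gins3), with a median log2 fold change of -0.22, and 1 fell (Cdc7, the kinase that fires origins) against NE-treated BMDCs. Their summed level was 703 to 983 CPM in CTR, 711 to 745 CPM in NE-treated and 726 to 763 CPM in TDE-treated BMDCs, and the range of CTR thus held those of the other groups. Dut, the enzyme that removes dUTP, was at 23.1, 10.6 and 9.08 CPM in CTR, 8.07, 8.62 and 12.4 CPM in NE-treated and 5.49, 5.19 and 5.07 CPM in TDE-treated BMDCs. The log2 fold change was -1.44 ± 0.36 (SE) against CTR (adjusted p = 0.0295) and -0.89 ± 0.36 against NE-treated BMDCs (adjusted p = 0.153), and CTR replicate 1 was 2.35-fold above the mean of the other CTR libraries. Without that library the log2 fold changes of Dut were -0.92 (adjusted p = 0.00561) and -0.90 (adjusted p = 0.00326). Gins3, a subunit of the helicase activator, was at 18.5, 16.7 and 14.3 CPM in CTR, 11.99, 13.5 and 16.9 CPM in NE-treated and 9.698, 10.3 and 8.88 CPM in TDE-treated BMDCs. Against CTR the log2 fold change was -0.78 ± 0.17 (SE, adjusted p = 0.01897), and against NE-treated BMDCs it was -0.55 ± 0.17 (adjusted p = 0.0705). In the fit without CTR replicate 1, 6 of the 43 were higher and 4 lower against CTR, and 4 were higher and 8 lower against NE-treated BMDCs. These were 23.3% and 27.9% of the list, below the 34.4% and 40.7% of all tested genes that passed in that fit.

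Of 22 other regulators of G1 and S phase, 3 (13.6%) passed in each comparison, and 1 rose (Rb1) and 2 fell (E2f2 and E2f4) against CTR, and 3 fell against NE-treated BMDCs (Cdk6, E2f2 and E2f6). Rb1, the retinoblastoma protein that holds E2F factors, was at 59.6, 119 and 147 CPM in CTR, 138, 141 and 106 CPM in NE-treated and 223, 219 and 219 CPM in TDE-treated BMDCs. The TDE-treated libraries lay above all the others. Log2 fold changes were 1.02 ± 0.30 (SE) in TDE-treated against CTR (adjusted p = 0.0483) and 0.78 ± 0.30 against NE-treated BMDCs (adjusted p = 0.1302), and without CTR replicate 1 they were 0.72 (adjusted p = 0.00357) and 0.77 (adjusted p = 0.000986). Without that library 2 of the 22 were higher and 5 lower against CTR, and 2 were higher and 8 lower against NE-treated BMDCs. That was 31.8% and 45.5% of the list, near the 34.4% and 40.7% of all tested genes that passed in that fit. None of 5 other kinase inhibitors passed in either comparison. Without CTR replicate 1, Cdkn2a and Cdkn2d were higher in both, that is 40.0% of this list. In that fit 34.4% and 40.7% of all tested genes passed, 16.4% and 19.2% higher.

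**Figure D5:**
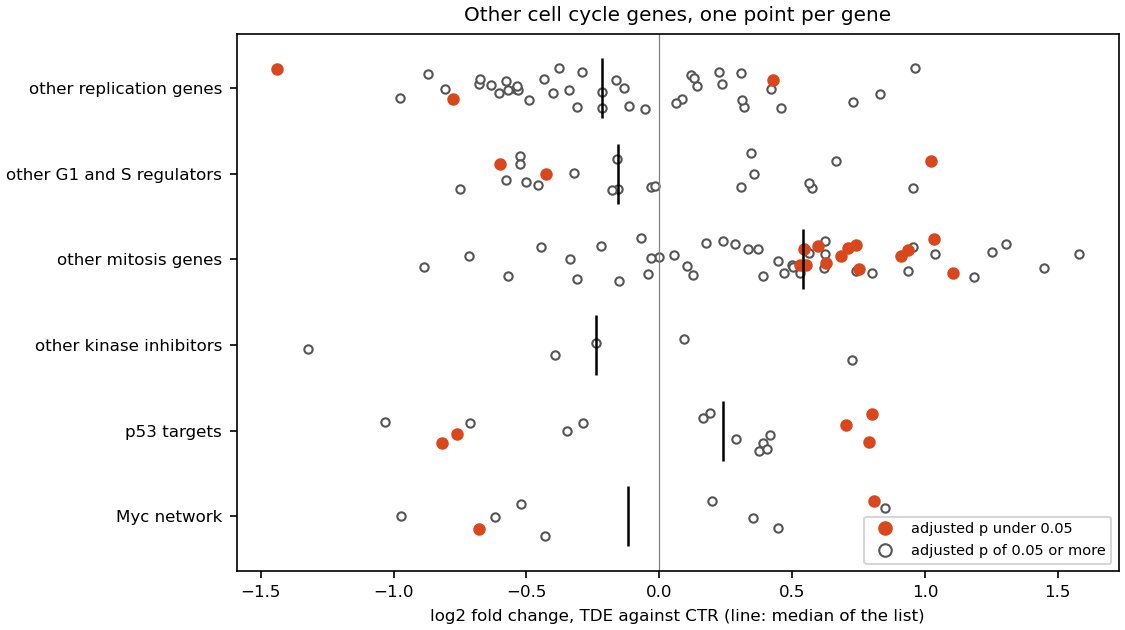
Log2 fold changes in TDE-treated against CTR BMDCs of other cell cycle genes, p53 targets and Myc network genes, 1 point per tested gene and a line at the median of each list. Filled points have an adjusted p under 0.05; all 13 of the mitosis list lie right of 0.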

How the data were processed

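RNA sequencing of 9 BMDC libraries, 3 per group, was analysed from estimated counts (expected counts) that the authors deposited per gene without normalization, with a gene length for each. Per the paper, oligo(dT) and random primers were used and sequencing was on a NovaSeq instrument, and the submitters' processing notes name TopHat2 2.1.1, DESeq2 1.24.0 and R 3.3.1. The counting program, genome build and annotation are not given in the sources used here. The paper gives 7 days of culture, the labels 6.

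Estimates were rounded to whole numbers, filtered with edgeR's filterByExpr and normalized with TMM, and all 9 libraries entered 1 model with a mean for each group (edgeR 4.0.16, R 4.3.3). For each gene the groups shared 1 estimate of the spread, so CTR libraries also entered the standard errors of TDE-treated against NE-treated BMDCs. Pairs of groups were compared with the quasi-likelihood F test, with Benjamini-Hochberg adjustment over all 15028 tested genes and a threshold of 0.05. Standard errors are the absolute log2 fold change over the root of F. Simulated data with 200 changed genes were used to test the code.

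The 41 genes and the lists of other genes and markers were chosen with earlier results of these data known. A result among the macrophage markers is not reported here. CPM in every library is given for each of the 41 genes that passed in any comparison, and values may be given for the 2 most abundant genes of each role and for genes with a log2 fold change over 1 in size. Of other genes, 3 in each direction with the most extreme log2 fold change in TDE-treated against CTR BMDCs were named, if their adjusted p was under 0.05, their mean reached 5 CPM and the libraries of these groups did not overlap. Estimated reads were fractional in at least 1 library for 17 of the 41 genes, which share reads with other genes. Positions and exon overlaps come from GENCODE vM21 (GRCm38). On the opposite strand, exons of Tk1 overlap Afmid, those of Cdk2 Pmel and those of Prc1 Rccd1. Exons of Rb1 overlap Rcbtb2 and Lpar6 there, those of Gadd45a E230016M11Rik and those of Mxd4 Gm42846. Reads of these overlapping genes may be mixed as well.

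The alternatives were DESeq2 1.42.0, limma 3.58.1 (voom with sample quality weights), size factors by median ratios, scaling by library totals, no filter, a filter of 10 counts in every library, fits to the 6 libraries of a pair, the replicate number as a block, and fits that leave out 1 library each. Neither the labels nor the paper pair same-numbered libraries. Python 3.11.15 with pandas 2.3.3 and matplotlib 3.10.9 made tables and plots.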

Additional observations from a re-analysis of the deposited data

How the results depend on the processing

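Of 23 calls among the 41 genes, 12 held under all 17 alternatives: Mcm6, Pcna, Ccnd1, Bub1 and Cdkn1a against CTR and Mcm2, Mcm5, Mcm6, Pcna, Ccnd1, Myc and Cdkn1a against NE-treated BMDCs. No called value turned its sign. The 12 calls against CTR became 7 with library totals alone, 20 with DESeq2, 28 with limma voom, 6 with no filter on low counts and 6 when the pair's own 6 libraries were fitted, and ranged from 5 (without TDE replicate 1 or 2) to 24 (without CTR replicate 1) with each library left out. Of all tested genes 16.9% were called over 9 libraries, 13.4% with library totals alone, 26.7% with DESeq2, 52.5% with limma voom, 6.00% with no filter, 7.93% with the pair's own libraries and 34.4% without CTR replicate 1. The 11 calls against NE-treated BMDCs became 31 with limma voom and 26 without any CTR library, and ranged from 7 to 26 with each library left out, where 13.9% of all tested genes were called over 9 libraries, 55.3% with limma voom and 41.9% without any CTR library. Mcm4 and Birc5, not called over 9 libraries, passed with the opposite sign against CTR with limma voom (-0.23 and 0.44) and without CTR replicate 1 (-0.27 and 0.58), and with each library left out ranged from -0.27 to 0.36 and from -0.60 to 0.58. Over the lists of other genes (cell cycle, p53 targets and Myc network), the 26 calls against CTR became 9 with library totals alone, 47 with DESeq2, 86 with limma voom, 9 with no filter and 10 with the pair's own libraries (5 to 63 with each library left out), and the 14 against NE-treated BMDCs became 5, 26, 91, 4 and 65 (2 to 66). The share of all tested genes called against NE-treated BMDCs was 11.9% with library totals alone, 20.1% with DESeq2 and 4.95% with no filter. With 1 library left out in turn, this share was lowest without TDE replicate 3 (6.29%) and highest without CTR replicate 1 (40.7%). When CTR was the reference, the same fits gave the lowest and highest shares, 7.15% and 34.4%. Library totals alone moved the median log2 fold change of all genes between NE-treated and CTR BMDCs from 0.0048 to 0.12. Same-numbered libraries did not all deviate together, with correlations of -0.694 to 0.285 for NE-treated with CTR, of -0.10 to 0.10 for TDE-treated with CTR and of -0.11 to 0.04 for TDE-treated with NE-treated BMDCs, while CTR replicate 1 and NE replicate 3 had 0.606. The labels do not say that equal numbers mark pairs. With the replicate block, 6 of the 41 genes passed against CTR (Bub1 and Cdkn1a higher, Ccnd1, Mcm5, Mcm6 and Pcna lower) and 8 against NE-treated BMDCs, and of the other lists 8 and 3 genes passed. Of all tested genes, 8.55% passed against CTR and 7.82% against NE-treated BMDCs with that block. The cause of these changes was not tested. Of the 41 genes, Ccnd1 had the fewest reads in a single library.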

Other observations

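Genes known as p53 targets did not move in 1 direction beside Cdkn1a. Of 16 listed, 5 (31.2%) passed in TDE-treated against CTR BMDCs and 3 (18.8%) against NE-treated BMDCs, beside 16.9% and 13.9% of all tested genes. Thus 3 rose in TDE-treated against CTR BMDCs (Ccng1, Mdm2 and Zmat3) and 2 fell (Gadd45a and Sesn1), and against NE-treated BMDCs 1 rose (Sesn2) and 2 fell (Pmaip1 and Sesn1), in edgeR's test with adjusted p under 0.05. All but Gadd45a are named because they passed, after their values were seen. Ccng1, which encodes cyclin G1, was at 93.5, 165 and 166 CPM in CTR, 162, 169.7 and 163 CPM in NE-treated and 244, 245 and 250.2 CPM in TDE-treated BMDCs (log2 fold change 0.80 ± 0.21 against CTR, adjusted p = 0.0369). Sesn1, a stress-induced regulator of mTORC1, was at 61.9, 86.1 and 76.2 CPM in CTR, 82.3, 82.3 and 83.3 CPM in NE-treated and 44.8, 43.3 and 44.2 CPM in TDE-treated BMDCs (-0.76 ± 0.14, adjusted p = 0.00853). Gadd45a, a stress-response gene, was at 46.7, 34.8 and 30.02 CPM in CTR, 28.2, 29.01 and 38.2 CPM in NE-treated and 20.3, 22.9 and 19.9 CPM in TDE-treated BMDCs (-0.82 ± 0.20, adjusted p = 0.0266). In each of these genes the TDE-treated libraries lay to 1 side of all the others. Without CTR replicate 1, 6 of the 16 rose and 4 fell against CTR and 7 rose and 4 fell against NE-treated BMDCs. That was 62.5% and 68.8% of the list, beside 34.4% and 40.7% of all tested genes in that fit. There the log2 fold changes against CTR were 0.57 (adjusted p = 0.000229) for Ccng1, -0.89 (adjusted p = 3.83e-05) for Sesn1 and -0.63 (adjusted p = 0.00852) for Gadd45a.

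Of 10 tested genes of the Myc network, the partners and antagonists of Myc, 1 rose (Mxd1) and 1 fell (Mxd4) against CTR, near the share of all tested genes that passed, and none passed against NE-treated BMDCs. Both encode repressors that compete with Myc for Max. Mxd1 was at 82.4, 150.4 and 140.2 CPM in CTR, 149.9, 154 and 149.6 CPM in NE-treated and 227, 211 and 215 CPM in TDE-treated BMDCs (log2 fold change 0.81 ± 0.21 against CTR, adjusted p = 0.0361). Mxd4 was at 197, 158 and 164 CPM in CTR, 158, 161 and 129 CPM in NE-treated and 107, 107 and 109.7 CPM in TDE-treated BMDCs (-0.68 ± 0.14, adjusted p = 0.0150). These values were, without CTR replicate 1, 0.57 (adjusted p = 0.000345) for Mxd1 and -0.58 (adjusted p = 0.00188) for Mxd4. In that fit 2 of the 10 genes rose and 2 fell against CTR. Against NE-treated BMDCs 3 rose (Mnt, Mxd1 and Mxi1) and 2 fell (Max and Mxd4). That fit also called larger shares of all tested genes, 34.4% and 40.7%, so the added calls were not specific to these 10 genes. The markers of other cell types that moved beside these genes included all 7 of basophils and mast cells, which were lower in TDE-treated BMDCs in both comparisons. They also included the macrophage markers Adgre1, which rose, and C1qb, which fell, against CTR. Of 6 tested fibroblast genes, 2 rose against CTR (Dcn and Pdgfrb) and 1 against NE-treated BMDCs (Dcn), where 7.57% and 6.73% of all tested genes rose. The 8 listed fibroblast genes summed to only 6.46 to 7.61 CPM in CTR and 10.8 to 11.8 CPM in TDE-treated BMDCs. Of the remaining lists, 6 of 10 dendritic cell markers, 3 of 6 B cell markers, 2 of 3 tested T and NK cell markers and 1 of 2 tested epithelial markers fell against CTR, and the 1 erythroid gene tested, of 7 listed, did not pass. Against NE-treated BMDCs 3, 1, 1 and 1 of these fell. Of all tested genes, 9.34% and 7.21% fell in these comparisons. The T and NK cell markers summed to only 4.39 to 8.18 CPM in CTR and 0.382 to 0.720 CPM in TDE-treated BMDCs. Leaving out CTR replicate 1, 9 of 10 dendritic cell markers, 3 of 6 B cell markers and 3 of 4 tested T and NK cell markers were lower against CTR. The B cell marker Cd79b was higher there, and 18.0% of all tested genes were lower. Their part in the results was not tested.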
